A study of Mus musculus with 12 samples.

Results

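Genes of ribosome biogenesis and Myc were followed in RNA sequencing of cultured mouse regulatory T cells (Tregs). The members were the rows of the deposited table whose symbol is on a list of 46, and all 46 were found among the 55228 symbols of the table. A gene was tested when its mean TPM (a transcript's share of all transcripts, corrected for its length) over the libraries was at least 1, which kept 15043 genes and all 46 members. The table holds 12 libraries, 3 from each of 4 groups. All groups came from CD4+ T cells of the lymph nodes of 16 NOD.Foxp3-GFP mice, whose ages are not given in the sources used here. The cells were pooled, split into 3 parts, sorted separately as Foxp3.GFP+CD25+ and activated separately. On day 2 after activation each part was transduced by retrovirus with the empty vector (EV), 1G12t or 3A10t. Each vector carries the surface reporter Thy1.1, by which transduced cells were purified on day 9. In 1G12t and 3A10t the orthogonal IL-2 variant 1G12 or 3A10 is tethered, through a linker based on CD25, to the orthogonal IL-2 receptor β chain that binds it. Cells were washed free of IL-2 on day 4 and kept 5 more days without it (EV no IL-2, 1G12t and 3A10t), while a part of the EV culture stayed in medium with IL-2 (EV+IL-2). All 3 libraries of a group thus go back to the same pooled cells, and p-values measure the spread between such cultures, not between animals.

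Ribosomes are built in the nucleolus. RNA polymerase I copies the ribosomal DNA into a long precursor RNA, small nucleolar ribonucleoproteins (snoRNPs) modify it at chosen bases, and large groups of assembly factors fold, cut and export it as the small (40S) and large (60S) subunits. Myc is a transcription factor that pairs with Max on E-box DNA and drives many of these genes in growing cells. In T cells, antigen receptor and IL-2 signals are both known to raise Myc, and T cells that are about to divide enlarge their nucleoli.

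The palindrome CACGTG is the E-box that Myc and Max bind best, so the bases around each copy in the members' promoters are shown. RefSeq promoters (GRCm38.p6) run from 250 bases before a transcription start to 50 bases after it, and 40 of the 46 members had one. The promoters of Rrp12, Npm1, Fbl, Myc, Gnl2 and Bop1 were not used here. CACGTG stood in promoters of 9 of the 40 genes, 9 of 49 promoters (18.4%) against 7.15% of all 32851. In Rrn3 and Nop2 it lies before the start, and in the other 7 genes after it. Counting the bases before the start alone, the share was 4.08% of the members' promoters and 6.02% of all. Each line gives 30 bases of the gene's strand with CACGTG in capitals, and Rrn3 holds 2 copies.
Nop2, chr6:125131811-125131840, plus strand: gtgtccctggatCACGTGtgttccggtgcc
Utp4, chr8:106893643-106893672, plus strand: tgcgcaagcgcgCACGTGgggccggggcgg
Ltv1, chr10:13193092-13193121, minus strand: gccctgtggaccCACGTGtggagctgccgg
Utp20, chr10:88826765-88826794, minus strand: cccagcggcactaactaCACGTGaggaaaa
Pes1, chr11:3963965-3963994, plus strand: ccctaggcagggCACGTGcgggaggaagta
Pno1, chr11:17211540-17211569, minus strand: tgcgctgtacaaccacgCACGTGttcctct
Tsr1, chr11:74898092-74898121, plus strand: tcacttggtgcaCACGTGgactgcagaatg
Rrn3, chr16:13780472-13780501, plus strand: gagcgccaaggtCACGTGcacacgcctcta
Rrn3, chr16:13780639-13780668, plus strand: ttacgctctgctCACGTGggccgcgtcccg
Wdr43, chr17:71616220-71616249, plus strand: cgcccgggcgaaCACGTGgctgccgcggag

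The next set shows promoter sequence of Dkc1, Nhp2, Gar1 and Nop58, the genes with a promoter in the table that were higher in EV+IL-2 than in EV no IL-2 at the threshold used below. Each begins 250 bases before the RefSeq start and stops at the start or at the first base of the gene in GENCODE M21, whichever comes first. The 300-base promoters of these 4 genes hold no CACGTG. Capitals mark TTCNNNGAA, the motif bound by STAT5, the transcription factor that IL-2 receptors activate, and it is found in the stretch of Nop58 alone. The motif was present in promoters of 5 members, Polr1b, Rrn3, Nop58, Nob1 and Noc4l, which is 10.2% of the members' promoters and 8.30% of all. CACGCG, a weaker E-box that was added after the data were seen and searched as CACGCG or CGCGTG, was in 14 of the members' 49 promoters (28.6%, those of 12 genes) against 9.27% of all. A match in these windows is a description of letters and not evidence of binding.
Dkc1, chrX:75095604-75095853, plus strand: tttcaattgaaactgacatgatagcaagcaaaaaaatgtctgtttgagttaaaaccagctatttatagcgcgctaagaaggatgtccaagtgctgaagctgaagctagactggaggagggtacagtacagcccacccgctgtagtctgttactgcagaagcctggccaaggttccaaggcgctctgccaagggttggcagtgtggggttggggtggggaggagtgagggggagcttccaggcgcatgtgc
Nhp2, chr11:51619523-51619734, plus strand: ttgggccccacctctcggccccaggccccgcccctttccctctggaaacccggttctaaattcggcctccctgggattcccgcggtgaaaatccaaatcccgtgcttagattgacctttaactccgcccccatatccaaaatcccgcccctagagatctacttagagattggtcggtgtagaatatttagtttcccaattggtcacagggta
Gar1, chr3:129831397-129831646, minus strand: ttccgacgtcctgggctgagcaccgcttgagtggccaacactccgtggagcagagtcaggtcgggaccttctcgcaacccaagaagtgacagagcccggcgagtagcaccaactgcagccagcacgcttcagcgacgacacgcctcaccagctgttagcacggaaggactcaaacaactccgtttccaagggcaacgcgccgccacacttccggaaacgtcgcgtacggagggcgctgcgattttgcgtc
Nop58, chr1:59684756-59684970, plus strand: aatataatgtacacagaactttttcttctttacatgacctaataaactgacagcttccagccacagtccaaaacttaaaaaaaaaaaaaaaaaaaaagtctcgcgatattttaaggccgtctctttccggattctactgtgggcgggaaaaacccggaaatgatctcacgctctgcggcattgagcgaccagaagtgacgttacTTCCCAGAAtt

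The members differed widely in level. Levels below are scaled TPM, the deposited TPM divided by a size factor for each library, and are per transcript length, so genes can be compared. Over the 12 libraries the mean level ran from 3.76 for Noc3l and 4.75 for Utp20 to 402 for Nop56, a core protein of box C/D snoRNPs, which guide methylation of ribosomal RNA. Myc itself was second, with a mean of 363, above Npm1 (272), an abundant nucleolar chaperone, and Dkc1 (148), the pseudouridine synthase of box H/ACA snoRNPs. The 2 members under a TPM of 5 were Noc3l and Utp20. Together the 46 genes made up between 0.347% and 0.360% of all TPM in EV no IL-2. The share was between 0.399% and 0.419% for EV+IL-2, between 0.303% and 0.346% for 1G12t and between 0.325% and 0.362% for 3A10t. The EV+IL-2 range lies above the other 3, and the 3A10t range overlaps those of EV no IL-2 and 1G12t.

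**Figure D1:**
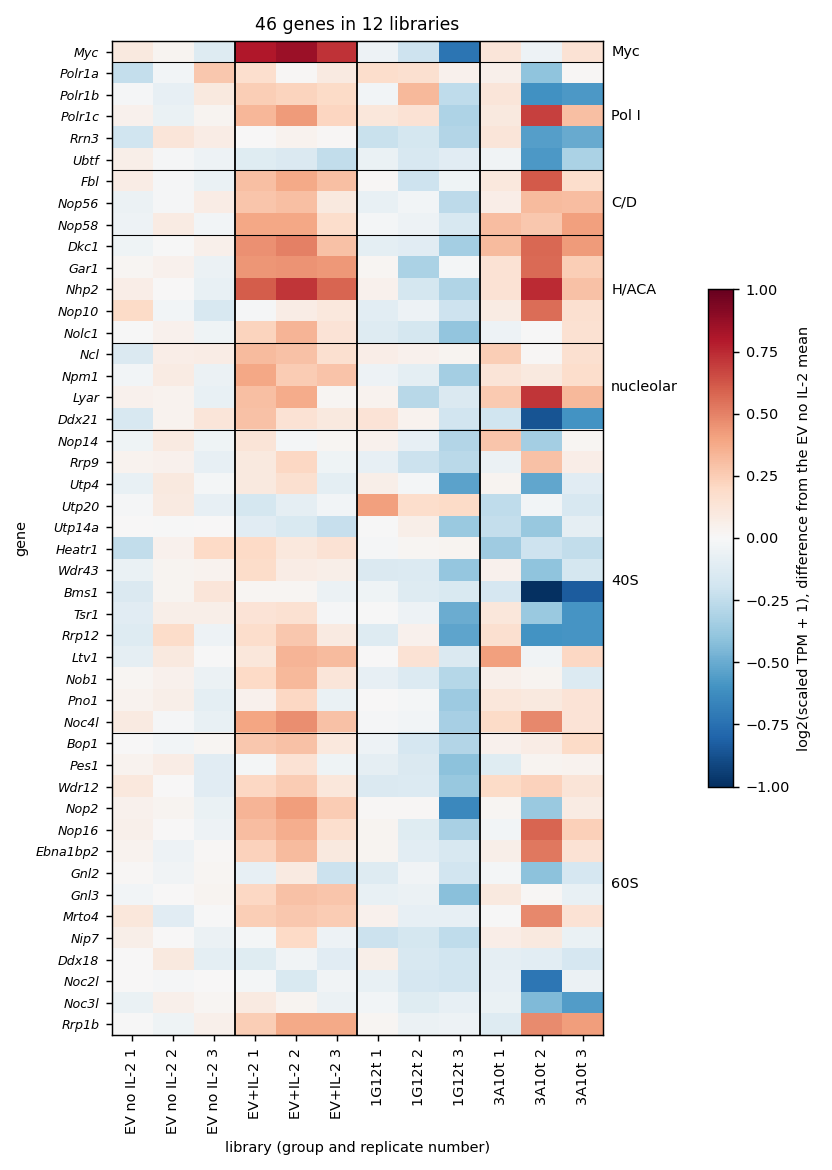
Colour shows the level of each of the 46 genes (rows, grouped by role) in each of 12 libraries (columns), as log2(scaled TPM + 1) minus the mean of the 3 EV no IL-2 libraries. The EV+IL-2 columns are mostly red with Myc reddest, the column of 1G12t replicate 3 is mostly blue, and 3A10t replicates 2 and 3 hold both strong red and strong blue cells.

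Libraries within a group did not behave alike. The median over the 46 genes of the log2 difference from the EV no IL-2 mean was 0.20, 0.25 and 0.10 in the EV+IL-2 libraries 1 to 3. In the 1G12t libraries it was −0.02, −0.09 and −0.26, and in the 3A10t libraries 0.06, 0.01 and 0.08, whereas the same median over all genes tested lay between −0.01 and 0.02 in all 12. 1G12t replicate 3 was the lowest of the 12 libraries for 24 of the 46 genes. 3A10t replicate 2 was the lowest for 12 and the highest for 14, and EV+IL-2 replicate 2 was the highest for 14. These ranks of libraries were not counted over all genes. The median SD of the members on the log2 scale was 0.223 for 3A10t and 0.137 for 1G12t, against 0.071 for EV no IL-2 and 0.081 for EV+IL-2. For all genes tested it was 0.224, 0.154, 0.119 and 0.109 in that order. The standard errors and p-values below rest on a spread estimated from all 12 libraries together. A gene therefore has the same standard error in every comparison, and it is not specific to the groups compared.

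**Figure D2:**
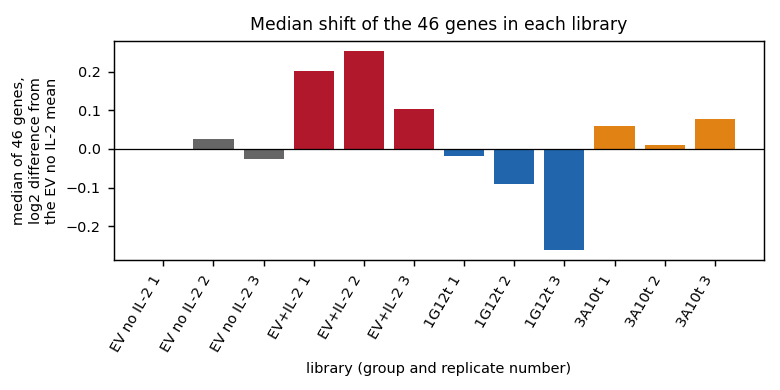
Bars give, for each of the 12 libraries (group and replicate number), the median over the 46 genes of the log2 difference from the EV no IL-2 mean, on the log2(scaled TPM + 1) scale. The 3 EV+IL-2 bars lie above the other 9, between 0.10 and 0.25, and 1G12t replicate 3 is the lowest at −0.26.

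With soluble IL-2, Myc rose, and so did 3 of the 4 proteins of box H/ACA snoRNPs, Nop58 and Npm1. No member of RNA polymerase I or of the subunit assembly factors passed the test in the main setting. The assembly factor Noc4l passed in 12 of 24 alternative settings. In EV+IL-2 against EV no IL-2, 6 of the 46 genes were higher (Myc, Nhp2, Gar1, Dkc1, Nop58 and Npm1) and 0 lower at an adjusted p under 0.05 (limma over all 15043 genes, Benjamini-Hochberg adjustment). Of all genes tested, 8.17% were higher and 5.14% lower. In bulk RNA, more cells of one state and more RNA in each cell cannot be told apart. Before adjustment, 16 members were higher and 0 lower at p under 0.05, beside 13.9% and 12.4% of all genes. At the threshold the study used, an unadjusted p under 0.01 with a log2 fold change beyond 0.25, Noc4l joined the 6, which makes 7 higher and 0 lower, beside 8.99% and 6.12% of all genes. The median log2 fold change of the members, on the log2(scaled TPM + 1) scale used for all fold changes here, was 0.20, beside −0.01 for all genes tested, and 39 of the 46 values were above 0. The 3 EV+IL-2 libraries were all above the 3 EV no IL-2 libraries for 24 members (52.2%, against 19.6% of all genes), and all below for 3 (6.52%, against 20.0%).

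Myc (chr15:61985391-61990374, plus strand, GRCm38) was at 338, 321 and 289 scaled TPM in EV no IL-2 and at 550, 572 and 521 in EV+IL-2. The lowest EV+IL-2 library was thus well above the highest library without IL-2. The mean rose from 316 ± 24.8 (SD, n = 3) to 548 ± 25.6, 1.73-fold, with a log2 fold change of 0.79 (SE 0.148, adjusted p = 0.0049 by limma). In all 24 alternative settings the call remained, with adjusted p from 0.00025 to 0.028.

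Box H/ACA snoRNPs carry 4 proteins that turn chosen uridines of ribosomal RNA into pseudouridine, and 3 of the 4 rose. Nhp2 (chr11:51619735-51623714) stood at 93.7, 89.8 and 84.8 scaled TPM without IL-2 and at 137, 147 and 134 with it, a log2 fold change of 0.64 (SE 0.143, adjusted p = 0.014). Gar1 (chr3:129824912-129831396) stood at 46.2, 46.8 and 43.6 without IL-2 and at 62.2, 62.4 and 62.0 with it, a log2 fold change of 0.44 (SE 0.118, adjusted p = 0.032). Both genes were separated completely between the groups, and the 3 Gar1 values with IL-2 lay within 1 TPM of each other. Dkc1, the catalytic subunit (chrX:75095854-75109777), was at 125, 128 and 133 without IL-2 and at 177, 183 and 158 with it, a log2 fold change of 0.42 (SE 0.0960, adjusted p = 0.015). Nop10, the smallest protein of the particle, had a log2 fold change of 0.06 (SE 0.129, adjusted p = 0.86), and the snoRNP chaperone Nolc1 one of 0.24 (SE 0.0936, adjusted p = 0.13). With the replicate number as a block, libraries of the same number, taken to share a sort, are compared with each other. The adjusted p of Gar1 by limma was then 0.056 and it was no longer called (0.0019 to 0.11 over the 24 settings).

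Box C/D snoRNPs guide methylation of ribosomal RNA, and Fbl, Nop56 and Nop58 are their proteins among the members. All 3 of these members had their 3 EV+IL-2 libraries above the 3 EV no IL-2 libraries, and Nop58 passed the test. Nop58 (chr1:59684971-59719044) was at 126, 139 and 128 scaled TPM without IL-2 and at 172, 171 and 148 with it, a log2 fold change of 0.31 (SE 0.0828, adjusted p = 0.029). Fbl, fibrillarin, the methyltransferase of the particle, was at 95.1, 89.2 and 86.2 without IL-2 and at 111, 117 and 111 with it. Its log2 fold change of 0.33 (SE 0.122) did not pass the test (adjusted p = 0.11). Among abundant nucleolar proteins, Npm1 was at 253, 272 and 248 without IL-2 and at 336, 307 and 313 with it, a log2 fold change of 0.31 (SE 0.0845, adjusted p = 0.035). The other members of that group, Ncl (nucleolin), Lyar and the RNA helicase Ddx21, had log2 fold changes between 0.18 and 0.26 and none passed.

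The assembly factors of the subunits did not pass the adjusted threshold in the main setting of this comparison, and 1 of them, Noc4l, passed that of the study. For the 14 genes of the small subunit processome and 40S maturation, 0 were called, the median log2 fold change was 0.09 and the values ran from −0.17 to 0.38. The highest was Noc4l, a processome protein, at 99.7, 93.0 and 89.1 scaled TPM without IL-2 and at 124, 130 and 115 with it. Its libraries did not overlap, its log2 fold change was 0.38 (SE 0.114), and its adjusted p was 0.051, 0.024 with the replicate block and 0.01 to 0.17 over the 24 settings. For the 14 genes of 60S maturation, 0 were called, the median was 0.20 and the values ran from −0.09 to 0.34, and 8 of the 14 had all 3 EV+IL-2 libraries above all 3 EV no IL-2 libraries. The highest of these was Nop2, an RNA methyltransferase of the 60S pathway, at 64.9, 64.3 and 60.1 without IL-2 and at 79.9, 84.8 and 75.5 with it, with a log2 fold change of 0.34 (SE 0.173, adjusted p = 0.26). The 5 genes of RNA polymerase I and its factors had a median of 0.09 and 0 were called by limma. At an unadjusted p under 0.05, 0 of these 5 were higher, beside 2 of the small subunit genes and 4 of the 60S genes, and 0 were lower. Polr1c, a subunit shared by RNA polymerases I and III, was highest at 45.9, 42.5 and 45.5 without IL-2 and 56.5, 60.2 and 52.0 with it (log2 fold change 0.32, SE 0.156, adjusted p = 0.22). Ubtf, which opens ribosomal DNA for the polymerase, was lowest at −0.17 (SE 0.116), with its 3 EV+IL-2 libraries below the 3 EV no IL-2 libraries.

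**Figure D3:**
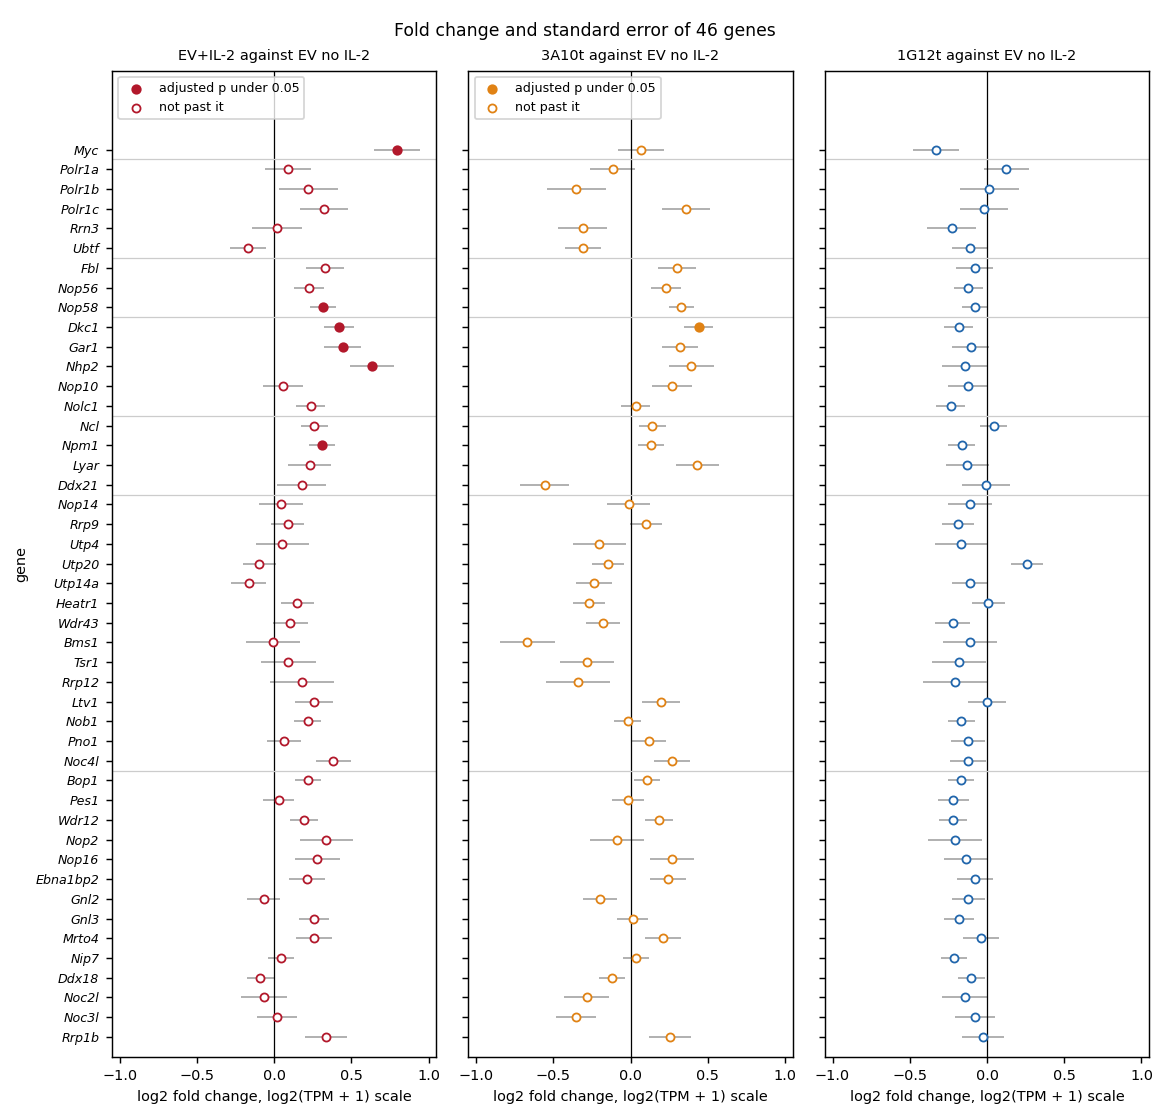
Points give the log2 fold change of each of the 46 genes on the log2(scaled TPM + 1) scale and bars its standard error from limma, in 3 comparisons with EV no IL-2 (n = 3 libraries a group), with lines between the groups of genes by role. The standard error of a gene comes from all 12 libraries and is the same in the 3 comparisons, although the groups differed in spread. Filled points have an adjusted p under 0.05. EV+IL-2 has 6 of them, 3A10t has 1 and 1G12t 0, and for 1G12t 40 of the 46 points lie left of 0.

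Several members that did not pass had libraries that did not overlap. Nop56 was at 361, 373 and 397 scaled TPM without IL-2 and at 458, 463 and 404 with it (log2 fold change 0.23, SE 0.0952, adjusted p = 0.16). Ncl was at 115, 134 and 135 without IL-2 and at 159, 156 and 143 with it (0.26, SE 0.0873, adjusted p = 0.080). Gnl3, nucleostemin, a GTPase of 60S maturation, was at 96.1, 98.0 and 99.6 without IL-2 and at 113, 120 and 119 with it (0.26, SE 0.0976, adjusted p = 0.11). In each of these genes the gap between the groups was small beside the level. Bop1 and Pes1, which act in one complex with Wdr12, had log2 fold changes of 0.22 (SE 0.0842) and 0.03 (SE 0.102), and Pes1 libraries overlapped.

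The number of members called in this comparison was sensitive to single libraries. It was 1 without EV+IL-2 replicate 2, 2 without EV+IL-2 replicate 1 or without EV no IL-2 replicate 1 or 3, 3 without EV no IL-2 replicate 2 and 10 without 3A10t replicate 2, whose spread enters the fit, and 13 when the 6 libraries compared were fitted alone. The share of all genes called, in either direction, moved as well, from 13.3% to between 8.08% and 9.68% in the first 5 of these settings, 17.8% without 3A10t replicate 2 and 21.9% with the 6 libraries. Under all 24 settings each member called was higher with IL-2. Of the 24 settings, Nhp2 was called in 22, Dkc1 in 20, Gar1 in 16, Nop58 in 15 and Npm1 in 11. Members not called in the main setting passed in some of the 24. Noc4l was called in 12, Fbl, Gnl3 and Rrp1b in 2 each, and Ncl, Mrto4, Nop16, Nop2 and Polr1c in 1 each.

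The genes around the members gave a context for these values. These lists, like the members, are descriptions and their counts are read against the 8.17% of all genes that were higher in EV+IL-2. Of 28 known Myc targets outside the ribosome, 9 were higher and 0 lower, with a median log2 fold change of 0.30. The largest changes were those of Shmt1, an enzyme of one-carbon metabolism (1.03, SE 0.130, adjusted p = 0.00038), and Tfrc, the transferrin receptor (0.94, SE 0.134, adjusted p = 0.00091). Of 11 tested genes of the Myc network, 3 were called higher, Mxd3, Mxd1 and Mycn, and the largest change was in Mxd3, a partner of Max that rises in dividing cells (3.01, SE 0.242, adjusted p = 1.9e-05). The Myc paralog Mycn was at 0.437, 0.118 and 0.516 scaled TPM without IL-2 and at 3.68, 2.91 and 2.36 with it. It reached the mean TPM of 1 only through the EV+IL-2 libraries, so its call follows in part from the filter and is given as a description. Max, the partner of Myc, had a log2 fold change of 0.11 (SE 0.138). The other ribosome assembly genes lay near the median of all genes. Of 39 other small subunit factors 2 were higher (Riok1, a kinase of late 40S maturation, 0.57, SE 0.0963, and Bysl, 0.45, SE 0.0926), with a list median of −0.03. Of 48 other 60S factors 1 was higher (Pa2g4, 0.40, SE 0.0981), with a list median of 0.01. Of 10 other snoRNP factors 1 was higher, Naf1 (0.79, SE 0.172), an assembly factor of H/ACA snoRNPs that stayed under 4 scaled TPM in both groups. Of 12 other RNA polymerase I factors 1 was higher and 1 lower, the lower being Ttf1, which ends ribosomal DNA transcription (−0.42, SE 0.0991, adjusted p = 0.017). Of 11 RNA exosome genes 0 were called by limma and 1 was higher at an unadjusted p under 0.05, and their median was −0.08, with Dis3, the catalytic exonuclease, at 0.39 (SE 0.164, adjusted p = 0.16).

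Genes of cell division moved far more than the members in the same libraries. All 12 genes of a proliferation list were higher in EV+IL-2, with a median log2 fold change of 2.67, although Bub1 reached the mean TPM of 1 only through those libraries. Birc5, a mitotic survival protein, was at 7.55, 3.89 and 4.08 scaled TPM without IL-2 and at 92.8, 83.4 and 70.0 with it. The S and G2 phase cyclin Ccna2 was at 2.87, 2.49 and 1.45 without IL-2 and at 38.3, 33.7 and 29.8 with it. The part of the proliferation difference in the members' values was not tested. The summed level of 7 Treg markers was between 4876 and 5267 scaled TPM with IL-2 and between 3659 and 3773 without it. For 1G12t and 3A10t it was between 3728 and 4185 and between 3904 and 4476. Such a sum follows the most abundant markers. Against EV no IL-2, 5 of the 7 had log2 fold changes above 0 and 2 below in EV+IL-2, and likewise in 1G12t. In 3A10t, 3 were above 0 and 4 below, with a median of −0.11. The 4 B cell markers summed to between 9.28 and 16.7 and the 2 CD8 T cell markers to between 3.48 and 6.57 in all 12 libraries. The 5 myeloid markers summed to between 446 and 560 in the other groups and between 545 and 772 in 3A10t. Of the 5, 4 were under the level for testing, with 1 of them at 0 in all 3 EV+IL-2 libraries. Nearly all of the sum is thus the 1 gene tested. It had a log2 fold change of 0.22 in 3A10t against EV no IL-2 and was not called. The part of B, CD8 T or myeloid cells in the results was not tested.

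With tethered 3A10, Dkc1 rose and no other member passed the test. The EV no IL-2 libraries are shared with the comparison above. In 3A10t against EV no IL-2, 1 of the 46 genes was higher, Dkc1, and 0 were lower at an adjusted p under 0.05 (limma), beside 0.452% higher and 1.60% lower among all genes tested. At an unadjusted p under 0.05, 9 members were higher and 5 lower (10.9% of all genes were higher and 15.1% lower). The median log2 fold change was 0.03 for the members and 0.03 for all genes, with 25 members above 0 and 21 below. All 3 libraries of 3A10t exceeded the 3 of EV no IL-2 for 13 members (28.3%, against 13.3% of all genes) and fell short of them for 4 (8.70%, against 12.1%). At the study's threshold Dkc1, Nop58 and Lyar were higher and Bms1 and Ddx21 lower, beside 2.83% higher and 6.67% lower among all genes.

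Dkc1 was at 161, 192 and 174 scaled TPM in 3A10t, all above the 125 to 133 of EV no IL-2 and beside 158 to 183 in EV+IL-2. Its log2 fold change was 0.44 (SE 0.0960, adjusted p = 0.045), but the call held in 9 of 24 settings, with adjusted p from 0.0063 to 0.23. Nhp2 was at 98.7, 151 and 109 scaled TPM, so that replicate 2 reached the EV+IL-2 level and the other two did not, and its log2 fold change was 0.39 (SE 0.143, adjusted p = 0.13). Gar1 was similarly at 50.5, 68.1 and 54.1, with 0.32 (SE 0.118, adjusted p = 0.13). Nop58 was at 163, 158 and 174, above all EV no IL-2 libraries, with 0.33 (SE 0.0828, adjusted p = 0.067). All 8 genes of the snoRNP groups had log2 fold changes above 0, whereas 4 of the 5 RNA polymerase I genes and 10 of the 14 small subunit genes had values below 0.

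Myc was at 342, 304 and 348 scaled TPM in 3A10t and its range overlapped that of EV no IL-2, with a log2 fold change of 0.07 (SE 0.148, adjusted p = 0.78). Its mean of 331 ± 23.9 was lower than the 548 ± 25.6 of EV+IL-2 by 0.72 on the log2 scale, and that difference was tested directly: the log2 fold change of 3A10t against EV+IL-2 was −0.72 (SE 0.148, adjusted p = 0.0065), and the call remained in all 24 settings.

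**Figure D4:**
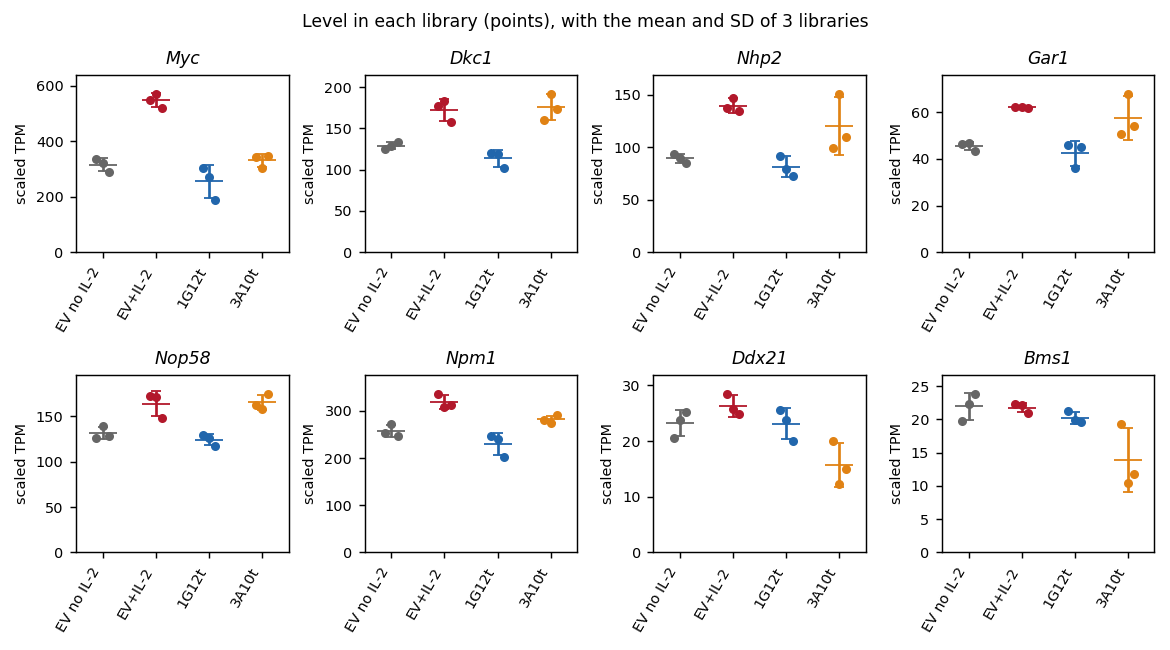
Points give the scaled TPM of 8 genes in each library of the 4 groups, horizontal marks the mean and bars the SD (n = 3), on axes that start at 0. Myc is at 521 to 572 in EV+IL-2 and under 350 in the other 9 libraries, Dkc1 and Nop58 are high in both EV+IL-2 and 3A10t, and Ddx21 and Bms1 are lowest in 3A10t replicates 2 and 3.

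The lowest values in 3A10t were those of Bms1, Ddx21 and Noc3l, and none passed the adjusted threshold. Bms1, a GTPase of the processome, was at 19.7, 22.2 and 23.8 scaled TPM in EV no IL-2 and at 19.3, 10.4 and 11.8 in 3A10t, where replicates 2 and 3 were far below replicate 1. Its log2 fold change was −0.67 (SE 0.175, adjusted p = 0.072). Ddx21, the helicase that links RNA polymerase I and II transcription to ribosome assembly, was at 20.6, 23.7 and 25.3 in EV no IL-2 and at 20.0, 12.2 and 14.9 in 3A10t, with −0.56 (SE 0.158, adjusted p = 0.084). Noc3l, a 60S factor, was at 3.84, 4.25 and 4.13 in EV no IL-2 and at 3.85, 2.74 and 2.43 in 3A10t, with −0.35 (SE 0.130, adjusted p = 0.13). In all 3 genes replicate 1 of 3A10t was the highest of its group, near the lower end of EV no IL-2. Further members had the same order of libraries. Polr1b, the second largest RNA polymerase I subunit, was at 13.5, 7.77 and 7.97 in 3A10t and at 11.6 to 13.2 in EV no IL-2. Rrn3, which makes the polymerase ready to start, was at 36.4, 22.4 and 23.2 in 3A10t and at 28.9 to 36.4 in EV no IL-2. Ubtf was at 86.2, 59.1 and 70.6 in 3A10t, and its lowest EV no IL-2 library was at 85.1. Replicate 1 of 3A10t was thus within the EV no IL-2 range or above it in Rrn3, Ubtf and Polr1b, and replicates 2 and 3 were below it. In Polr1c and Fbl replicate 2 was the one apart: Polr1c was at 47.8, 72.3 and 55.2 and Fbl at 97.1, 138 and 102 in 3A10t. Lyar, a nucleolar zinc finger protein, was at 29.5, 29.2 and 27.0 in EV no IL-2 and at 34.3, 47.3 and 36.0 in 3A10t, with a log2 fold change of 0.43 (SE 0.138, adjusted p = 0.10).

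Across the 46 genes, Spearman's rho between the log2 fold change of 3A10t against EV no IL-2 and the longest GENCODE M21 transcript of the gene was −0.49, and it was −0.33 across 14857 genes with a length. These are descriptions across genes of the same libraries. The 23 members with transcripts up to 2808.5 nt had a median log2 fold change of 0.13, with 17 above 0, and the 23 longer ones a median of −0.18, with 8 above 0. In EV+IL-2 against EV no IL-2 rho was −0.29 across the members (−0.03 across all genes) and in 1G12t 0.19 (0.04). It was −0.52 (−0.35) in 3A10t against 1G12t, where the shorter members had a median of 0.29 and the longer ones of −0.08, and −0.33 (−0.25) in 3A10t against EV+IL-2. Libraries of one group also differed in this way: against the mean of their own group, the 3 EV no IL-2 libraries had rho of −0.57, 0.15 and 0.46 across the members. In 3A10t replicates 1 to 3, against the EV no IL-2 mean, it was −0.20, −0.54 and −0.39. The longest transcript of a gene need not be the one these cells use, which was not examined. It was 9507 nt for Nop58, 10012 nt for Wdr12 and 8202 nt for Ncl, and the rho values and the correction rest on such lengths. The part of transcript length in the results was not tested beyond a lowess correction for it. That correction left Dkc1 called (adjusted p = 0.049, 0.0063 to 0.23 over the 24 settings), and turned the median of the members in 3A10t against EV no IL-2 from 0.03 to −0.00 and in 3A10t against 1G12t from 0.20 to 0.12.

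**Figure D5:**
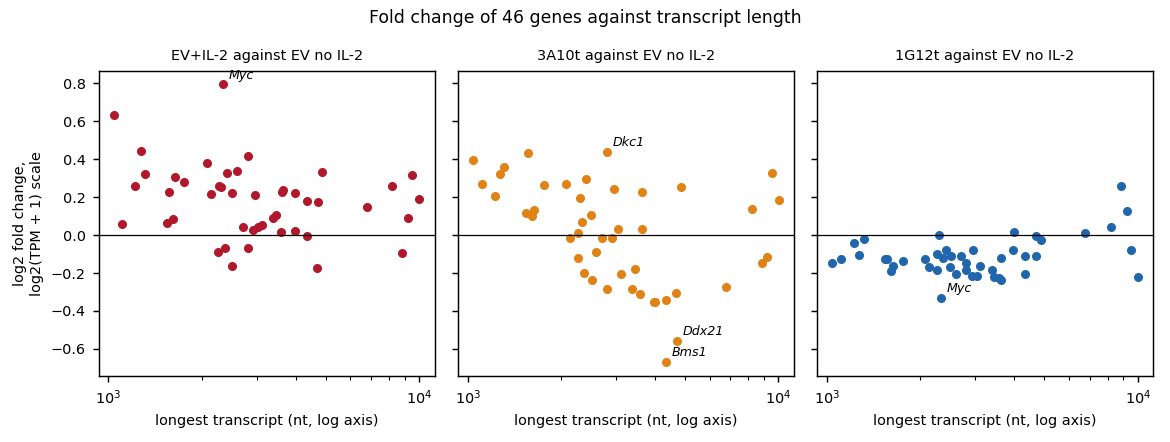
Each point is one of 46 genes, with the length of its longest transcript in nt on a log axis and its log2 difference from EV no IL-2 on the log2(scaled TPM + 1) scale, in 3 panels for EV+IL-2, 3A10t and 1G12t. In 3A10t the points fall from left to right (rho −0.49), with Bms1 and Ddx21 lowest, and the 1G12t points form a narrow band mostly under 0.

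How many members passed in 3A10t against EV no IL-2 depended on single libraries. Without 3A10t replicate 1, 18 were called, 10 higher and 8 lower, while 23.2% of all genes were called, in either direction, against 2.05% with all libraries. The higher ones were Polr1c, Fbl, Nop56, Nop58, Dkc1, Gar1, Nhp2, Lyar, Nop16 and Rrp1b, and the lower ones Polr1b, Rrn3, Ubtf, Ddx21, Bms1, Tsr1, Rrp12 and Noc3l. The count was 0 without 3A10t replicate 2 or 3, and 0 without each of the EV no IL-2 and EV+IL-2 libraries and 1G12t replicates 1 and 2. In these settings 0.166% to 0.800% of all genes were called.

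Few genes of the other lists passed the test in 3A10t. Of 28 Myc targets outside the ribosome 1 was higher, Shmt1 (0.66, SE 0.130, adjusted p = 0.037), and the list median was 0.16. Tfrc had a log2 fold change of −0.53 (SE 0.134, adjusted p = 0.067) in 3A10t. Of 12 proliferation genes 1 was higher, with a list median of 0.47. Of the other small subunit, 60S, snoRNP and RNA polymerase I factors, the RNA exosome and the Myc network 0 were called by limma. At an unadjusted p under 0.05, 1 other small subunit factor was higher and 9 lower, 5 other 60S factors were higher and 7 lower, 3 other snoRNP factors were higher and 0 lower, and 5 other RNA polymerase I factors were higher and 3 lower. The RNA exosome had 1 gene higher and 2 lower at that level, the Myc network 1 and 1, the Myc targets 9 and 3 and the proliferation list 8 and 0. These counts stand beside the 10.9% higher and 15.1% lower among all genes.

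Set directly against EV+IL-2, 3A10t had 4 members lower (Myc, Ddx21, Bms1 and Heatr1) and 0 higher, beside 13.0% lower and 10.3% higher among all genes. An unadjusted p under 0.05 was found for 11 members that were lower and 0 that were higher, beside 20.2% and 17.0% of all genes. The study's threshold gave the same 4 lower and 0 higher, beside 12.5% and 9.64% of all genes. The members' median was −0.12 and that of all genes 0.00. All 3 libraries of 3A10t were below all 3 of EV+IL-2 for 11 members (23.9%, against 18.0% of all genes) and above for 0 (against 18.9%). Ddx21 had the lowest value, −0.73 (SE 0.158, adjusted p = 0.0082), and was called in all 24 settings. Bms1 was at 22.2, 22.1 and 20.9 scaled TPM in EV+IL-2, with −0.66 (SE 0.175, adjusted p = 0.021). Heatr1, a processome scaffold also needed for ribosomal DNA transcription, was at 15.1, 14.1 and 14.5 in EV+IL-2 and at 9.95, 11.1 and 10.8 in 3A10t, with −0.42 (SE 0.105, adjusted p = 0.016). The box H/ACA and C/D members had log2 fold changes between −0.24 and 0.21 in this comparison, with 0 called in the main setting. Nhp2 (−0.24, SE 0.143) was called lower in 4 of the 24 settings, and Gar1 and Nolc1 in 1 each. For Dkc1 the log2 fold change was 0.02 (SE 0.0960) and for Nop58 0.01 (SE 0.0828). With the replicate block Nob1, an endonuclease of 40S maturation, was also lower (−0.23, adjusted p = 0.037 with the block, 0.077 without and 0.013 to 0.23 over the 24 settings). The count was 2 without EV+IL-2 replicate 1, 7 without 1G12t replicate 3 and 11 without 3A10t replicate 1, where 12.9%, 23.8% and 33.7% of all genes were called, against 23.4% with all libraries. All 12 proliferation genes were also lower in this comparison, with a median of −2.17.

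With tethered 1G12, no member passed the test. In 1G12t against EV no IL-2, 0 of 46 were higher and 0 lower by limma, beside 0.0133% higher and 0.00665% lower among all genes tested, and the count was 0 in all 24 settings. At an unadjusted p under 0.05, 1 member was higher and 4 lower, beside 5.33% and 1.72% of all genes, and at the study's threshold 0 were higher and 0 lower, beside 1.13% and 0.226% of all genes. The values nevertheless lay mostly under 0, with 40 of 46 members below, a median of −0.12 beside −0.00 for all genes, and all 14 genes of 60S maturation below 0. All 3 libraries of 1G12t fell short of the 3 of EV no IL-2 for 12 members (26.1%, against 7.80% of all genes) and exceeded them for 1, Utp20, a long processome scaffold (2.17%, against 8.68%). Without replicate 3 the median was −0.06, and without replicate 1 or 2 it was −0.18 and −0.15. Myc was at 305, 273 and 190 scaled TPM in 1G12t, with replicate 3 under the other two, and its log2 fold change was −0.33 (SE 0.148, adjusted p = 0.71). Nop2 followed the same pattern at 63.7, 63.5 and 40.1. Dkc1 was at 121, 119 and 102, Nhp2 at 91.9, 79.1 and 72.3, and Npm1 at 248, 240 and 203. The mean of 1G12t was the lowest of the 4 groups for 28 members, and that of EV+IL-2 the highest for 28. This order of means was not counted over all genes. The lists of other factors lay under 0 as well: the median was −0.13 for the other small subunit factors, −0.09 for the other 60S factors and −0.14 for the Myc targets outside the ribosome, with 0 called in each by limma. At an unadjusted p under 0.05 these lists had 0, 1 and 0 genes higher and 1, 0 and 2 lower.

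Between the tethers, 4 members were higher in 3A10t than in 1G12t (Dkc1, Lyar, Nop58 and Wdr12) and 0 lower, beside 1.30% higher and 2.96% lower among all genes. Without adjustment, 20 members were higher and 4 lower at p under 0.05, beside 14.0% and 15.7% of all genes. The median was 0.20 for the members and −0.02 for all genes. Dkc1, at 161 to 192 scaled TPM in 3A10t and 102 to 121 in 1G12t, had the highest value, 0.62 (SE 0.0960, adjusted p = 0.016). Lyar, at 34.3 to 47.3 and 23.3 to 29.3, followed with 0.56 (SE 0.138, adjusted p = 0.049). Nop58, at 158 to 174 and 117 to 129, had 0.41 (SE 0.0828, adjusted p = 0.035). Wdr12, which with Pes1 and Bop1 forms a complex of 60S maturation, was at 34.2, 35.1 and 32.8 in 3A10t and at 26.9, 27.0 and 22.7 in 1G12t, with 0.40 (SE 0.0903, adjusted p = 0.041). At the study's threshold 10 members were higher and 3 lower (Utp20, Ddx21 and Bms1), beside 5.28% and 7.06% of all genes. Myc had a log2 fold change of 0.40 (SE 0.148, adjusted p = 0.11). With the replicate block Noc4l was also higher (0.39, adjusted p = 0.042 with the block, 0.066 without and 0.032 to 0.29 over the 24 settings).

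This count too moved with single libraries. Without 3A10t replicate 1 it was 26, 19 higher and 7 lower, while 27.6% of all genes were called, against 4.27% with all libraries. It was 0 without 3A10t replicate 3 or without 1G12t replicate 3, where 0.347% and 0.316% of all genes were called. It was 1 or 2 without each of the other 9 libraries (0.562% to 1.77% of all genes), and 0 with the 6 libraries compared alone (0.0735% of all genes). Without 1G12t replicate 3 the median of the members was 0.11. Dkc1 was called in 21 of 24 settings, Nop58 in 10, Wdr12 in 8 and Lyar in 6.

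Promoters with CACGTG were compared with the rest as a description. In EV+IL-2 against EV no IL-2, the 9 members whose promoter holds CACGTG had a median log2 fold change of 0.06 with 0 called, and the 31 others with a promoter had 0.22 with 4 called. In 3A10t against EV no IL-2 the medians were −0.15 and 0.10. None of the 9 was called in the 5 comparisons by limma. Another feature of the list is that 7 members (15.2%) hold 21 snoRNA genes within their bounds on the same strand in GENCODE M21, against 1.69% of 11052 protein-coding genes tested. Nop56 holds 5, Nop58 4, Ncl, Wdr43 and Gnl3 3 each, Tsr1 2 and Dkc1 1.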

How the data were processed

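RNA of 12 libraries was sequenced from oligo-dT primed, amplified cDNA. The authors trimmed reads with cutadapt 1.18, aligned them to mm10 with STAR 2.5.3 and estimated TPM with RSEM 1.3.0 and GENCODE gene models. Their counts, which were tested with DESeq2, were not used here. The deposited TPM keep no depth, so the spread between libraries is the only error given. The libraries had between 30393 and 43285 genes above 0.

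TPM were divided by median-of-ratios factors (0.846 to 1.08), and log2(scaled TPM + 1), with a pseudocount of 1, was fitted with limma 3.58.1 in R 4.3.3 (lmFit, contrasts.fit and eBayes with a trend) over genes whose TPM averaged 1 or more, with one mean per group, all 12 libraries and Benjamini-Hochberg adjustment over 15043 genes. On simulated data with 200 of 15043 genes changed, 182 of them and 10 others were called, and 0 in a comparison without change. How often the fit finds differences of the members' size, or calls wrongly, in groups as unequal in spread as these was not tested. Positions, lengths and snoRNA genes are from GENCODE M21 on GRCm38, the build of the authors' annotation, which matched 53569 symbols. The longest transcript was taken as a gene's length after the median transcript length had been seen. Promoter motifs were searched on both strands. Python 3.11.15 was used.

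The members, lists, tests and the rule for naming genes were chosen with earlier results of these data known. Values in every library are given for Myc and, in each group by role, for the genes with the largest absolute log2 fold change in EV+IL-2 and in 3A10t against EV no IL-2. Gar1, Lyar, Wdr12 and Heatr1 were added because they were called, and Nop56, Ncl, Gnl3, Polr1b, Rrn3 and Ubtf after their values were seen. The sample titles give a replicate number, which was taken to mark a shared sort and so to pair libraries. Deviations from the group means correlated by 0.041 on average over 18 pairs of the same number (−0.11 to 0.15, 3 pairs over 0.1) and by −0.020 over pairs of different numbers. The 24 alternatives changed the pseudocount (0.1 or 5), the filter (none, or a mean TPM from 5 upwards) or the scaling (unscaled TPM, or quantile normalization), fitted the 6 libraries of a comparison alone, added the replicate block, or used eBayes without a trend, a lowess correction for transcript length (span 0.3) with and without the block, protein-coding genes only, and each of the 12 libraries left out.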

Additional observations from a re-analysis of the deposited data

How the results depend on the processing

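The direction of the members' median was the same as reported in all 24 alternatives for 4 of the 5 comparisons. In 3A10t against EV no IL-2 it reversed to −0.11 with TPM as deposited, where the median of all genes also moved, from 0.03 to −0.09, and to −0.0014 with the lowess correction for transcript length, with or without the replicate block. With TPM as deposited the median in 3A10t against 1G12t was 0.01 beside −0.18 for all genes, so relative to all genes it stayed higher. The number of members called depended on the setting, and the cause was not tested beyond the construction of each setting. Each count of members called is followed in brackets by the share of all genes called, in either direction. In EV+IL-2 against EV no IL-2 the count was 6 in the main setting (13.3%). It was 3 with no filter on low TPM (3.30%), 13 with only the 6 libraries compared (21.9%), and 1 to 10 with a library left out (8.08% to 17.8%). In 3A10t against EV no IL-2 the count was 1 in the main setting (2.05%) and 3 with protein-coding genes only (6.03%). It was 0 with quantile normalization (1.21%), no filter (0.430%), unscaled TPM (3.32%), only the 6 libraries (0.0592%) or eBayes without a trend (1.24%). With a library left out it was 0 to 18 (0.166% to 23.2%). In 3A10t against 1G12t (4) it was 12 with protein-coding genes only, 9 with a mean TPM of at least 5, 2 with the lowess correction, 1 with no filter or without a trend and 0 with only the 6 libraries, and 0 to 26 with a library left out. In 3A10t against EV+IL-2 the count was 4 in the main setting (23.4%). It was 8 with TPM as deposited (23.2%), 9 with the lowess correction (25.7%) and 7 with that correction and the replicate block (26.5%). With a library left out it was 2 to 11 (12.9% to 33.7%). The replicate block alone gave 6 members for EV+IL-2 (13.1%), 1 for 3A10t (2.67%) and 0 for 1G12t (0.0199%) over EV no IL-2. It gave 5 for 3A10t over 1G12t (6.56%) and 5 over EV+IL-2 (24.7%). Beyond Gar1, Noc4l and Nob1 it changed no other member's call. Over the single members called, 251 values under the alternatives stayed past the threshold and 109 did not, all with the direction as reported. TPM keep no depth, so whether a difference not called here lay under the depth of a library cannot be read from these values, and 3A10t, with the largest spread, gives the least precise values.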
